A study of Mus musculus with 16 samples.

Results

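Genes of the unfolded protein response and the chaperones of the endoplasmic reticulum (ER) were followed in white adipose tissue of mice fed a low or a high fat diet, with and without Sirt1 in adipocytes. The set held 33 genes, named by their roles in these pathways but with earlier results of these data known, among 18193 genes measured. Each gene was read from 1 probe set, the one with the highest mean of those annotated to that gene alone. The genes fell into 4 roles: 15 chaperones and folding enzymes, 4 sensors and their factors, 7 genes of protein translocation and ER-associated degradation, and 7 genes of the ATF4 arm. Of the 33, 32 were tested, each being at 4 or above (log2) in no fewer than 4 arrays. Derl3, a channel component of ER-associated degradation, lay between 3.65 and 4.20 in the 16 arrays and was not tested.

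The ER folds secreted and membrane proteins with the help of chaperones such as BiP (Hspa5) and of protein disulphide isomerases. When unfolded proteins gather there, the sensors IRE1 (Ern1), ATF6 and PERK (Eif2ak3) signal to the nucleus: IRE1 splices Xbp1 messenger RNA, ATF6 is cleaved to an active factor, and PERK phosphorylates eIF2 and so raises translation of ATF4. XBP1 and ATF6 drive chaperone and degradation genes, whereas ATF4 drives amino acid synthesis, redox and stress genes and is also reached by eIF2 kinases that respond to other stresses. Adipocytes secrete large amounts of protein, and this response is a recurring subject of work on obese fat.

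Gene expression was measured on 16 Affymetrix arrays, 4 for each of 4 groups of C57BL6/J mice. Wild-type mice had no Cre, and knockout mice lacked Sirt1, a deacetylase, in adipocytes through Cre driven by the FABP4 promoter, which is known to be active also in macrophages. Mice of both genotypes started on the low or the high fat diet at 4 weeks of age, ate it for 8 weeks and were 12 weeks old at collection. No group carried Cre with intact Sirt1, the fat depot is not stated, and nothing says that the 4 arrays of a group were 4 animals, so p-values measure the spread between arrays, which may be technical. Below, the groups are called wild-type low fat, knockout low fat, wild-type high fat and knockout high fat. Levels are log2 values as deposited, differences are differences of log2 group means with their standard error, and a gene rose or fell where limma's moderated test gave an adjusted p under 0.05 over 12078 genes.

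The tissue label was checked against 9 adipocyte markers, whose mean log2 level was between 12.26 and 12.59 in the 4 groups. Arrays of one group correlated at 0.987 to 0.996 over all probe sets. Sirt1 itself read 9.43 ± 0.35 (SD, n = 4) in wild-type low fat, 9.24 ± 0.22 in knockout low fat, 8.97 ± 0.14 in wild-type high fat and 8.74 ± 0.30 in knockout high fat. Where its probes lie relative to the deleted part is not stated, so this does not check the genotype labels. Skeletal muscle RNA varied between arrays: Tnnt3, a fast muscle troponin, was at log2 8 or more in 5 arrays (replicates 3 and 4 of wild-type low fat, replicate 2 of knockout low fat, replicate 3 of wild-type high fat, and replicate 4 of knockout high fat). The summed level of 10 epithelial markers was 13.5 (log2) in wild-type high fat replicate 4 and at most 8.64 in the other 15 arrays. Where leaving out the 5 arrays with high Tnnt3 ended or made a call on a listed gene, the difference and adjusted p without them are given; that also leaves fewer arrays in each group.

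Chaperones, which were 15 of the 32 tested genes, made up most of the listed genes called higher after the high fat diet. Of the chaperones, 26.7% rose in wild-type and 53.3% in knockout fat, beside 20.5% and 15.6% of all genes. ATF4-arm genes made up most of those called lower in wild-type fat, and no sensor was called with the probe sets used and all 16 arrays. In wild-type fat, 6 of the 32 tested genes rose (Calr, Edem1, Manf, P4hb, Sdf2l1 and Sec61b) and 5 fell (Asns, Chac1, Sesn2, Syvn1 and Trib3), which is 34.4% of them. Over all genes tested, 35.6% passed the test (20.5% rose and 15.2% fell), so the total was near the background. In bulk tissue, more cells of a type and more RNA per cell cannot be told apart. In knockout fat, 11 rose (Creld2, Ddit3, Dnajb11, Edem1, Hspa5, Hyou1, Manf, Pdia3, Pdia6, Sdf2l1 and Sec61b) and 3 fell (Asns, Chac1 and Herpud1). That is 43.8% of the tested members, against 29.2% of all genes, 15.6% rising and 13.5% falling. The 2 diet groups did not overlap for 6 members that were higher and 4 that were lower in wild-type fat (17.7% and 13.1% of all genes) and for 9 and 3 in knockout fat (17.6% and 15.5%). The count of fallers in wild-type fat went from 5 to 3 without wild-type low fat replicate 1, and the count of risers in knockout fat from 11 to 7 without knockout low fat replicate 1. With arrays centred on their medians, all-gene calls in wild-type fat split into 2050 higher and 2552 lower instead of 2472 and 1832, and the listed genes into 4 higher and 5 lower.

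**Figure D1:**
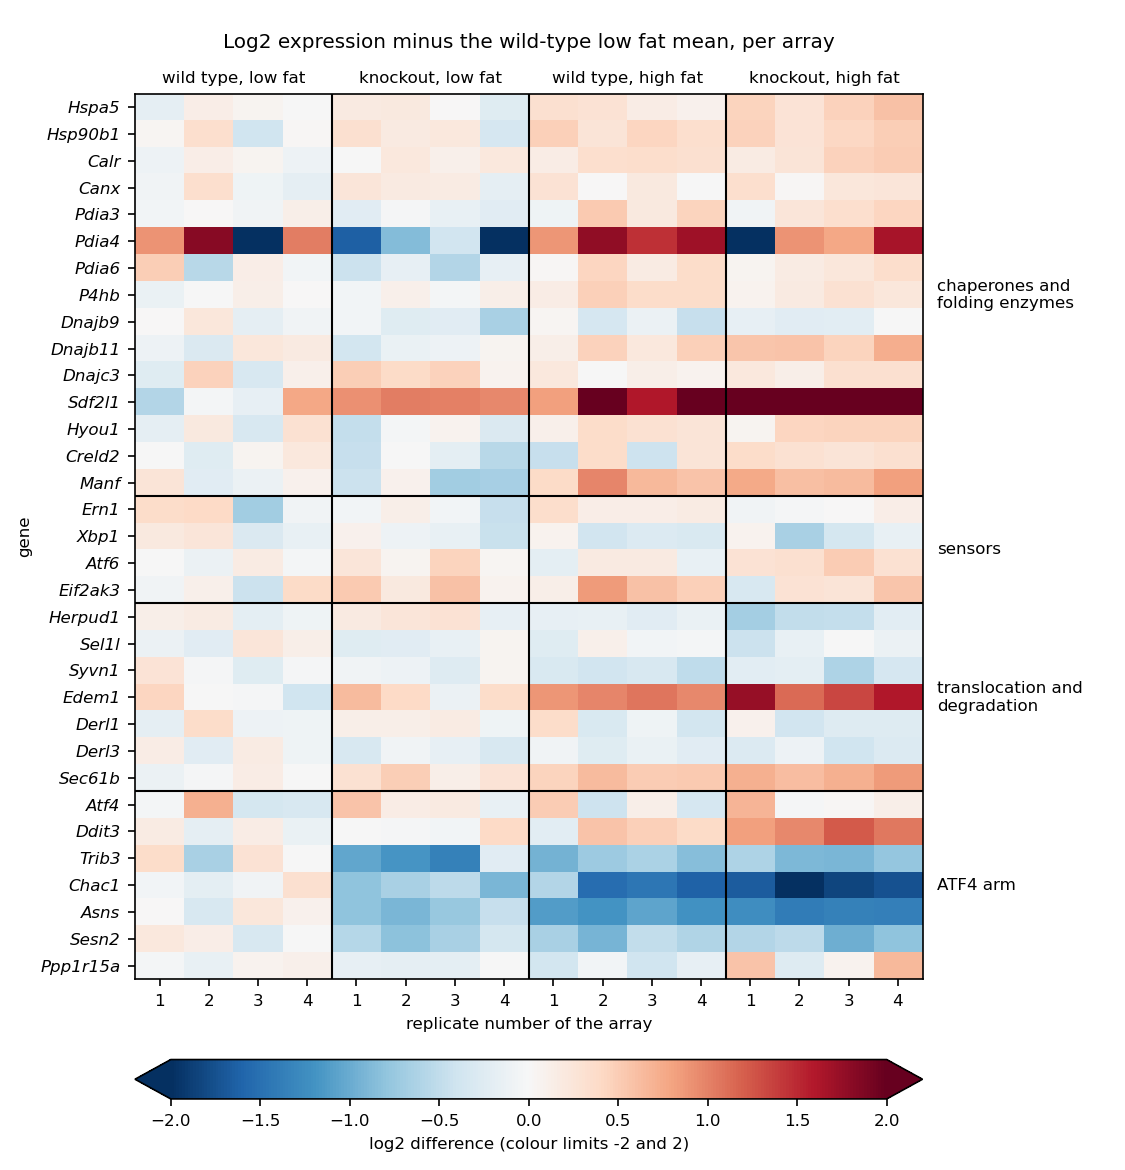
Colours show each array's log2 value minus the mean of the 4 wild-type low fat arrays, for the 33 genes (rows, by role) in the 16 arrays (columns, by group), with colours saturating at 2 in either direction. Sdf2l1, Manf and Edem1 are higher in the high fat columns, Asns and Chac1 are lowest there, and Pdia4 varies within groups.

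Markers of other cell types moved with diet and genotype. The counts below stand beside 20.5% of all genes rising and 15.2% falling with the diet in wild-type fat, and 15.6% and 13.5% in knockout fat. Between genotypes, 11.7% of all genes were higher and 7.24% lower in knockouts on the low fat diet, and 8.58% and 6.47% on the high fat diet. The summed level of 11 macrophage markers (log2) ran from 13.57 to 14.01 in wild-type low fat, 14.02 to 14.22 in knockout low fat, 14.06 to 14.66 in wild-type high fat and 14.97 to 15.15 in knockout high fat; 8 of the 11 rose with the diet in each genotype, 2 of 11 were higher in knockout fat on the low and 6 on the high fat diet. The sum of 10 fibroblast and progenitor markers ran from 14.59 to 15.02, 14.93 to 15.49, 15.29 to 15.42 and 15.12 to 15.29 in the same order of groups, with 8 of 10 rising with the diet in wild-type and 1 in knockout fat, and 6 of 10 higher in knockout fat under low-fat feeding. Plasma and B cell markers, from cells known for abundant ER chaperones, summed to 12.52 to 13.30, 12.21 to 12.43, 12.34 to 12.74 and 12.17 to 13.07; of 9 tested, 6 rose and 1 fell with the diet in wild-type fat, and 4 rose and 1 fell in knockout fat. Adipocyte markers summed to at least 15.70 and at most 16.08 in the 16 arrays, and 3 of 9 fell with the diet in each genotype. Of these markers Lep, the hormone leptin, rose in wild-type fat and was higher in knockouts under low-fat feeding, where 2 of 9 were lower. Endothelial markers summed to 11.96 to 12.38, 12.22 to 12.29, 12.52 to 12.80 and 11.86 to 12.37 in the same order; of 7, 3 rose with the diet in wild-type fat, 1 rose and 2 fell in knockout fat, and 4 were lower in knockouts under high-fat feeding. Mesothelial markers were low in knockout high fat (10.19 to 11.35), against 11.89 to 13.18 in wild-type high fat, and 7 of 8 fell with the diet in knockout fat; 7 of 8 were also lower in knockouts than in wild-type mice after high-fat feeding. Of 7 pancreatic acinar markers measured, 6 were under 4 in all arrays. The 1 that was tested rose with the diet in wild-type (1.84) and knockout fat (0.92). It was also higher in knockouts on the low (2.09) and the high fat diet (1.17). The part of these cells in the results that follow was not tested.

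Among chaperones and folding enzymes, 13 of 15 had a higher mean after high-fat feeding in wild-type mice and 14 of 15 in knockouts, as did 6430 and 5839 of the 12078 genes tested. Of these, 4 passed the test in wild-type fat (26.7%) and 8 in knockout fat (53.3%), all of them higher. Over all genes tested, 20.5% rose in wild-type and 15.6% in knockout fat. The role had a median difference of 0.27 in wild-type fat, and 0.41 in knockout fat, beside 0.04 and -0.02 over all genes tested. The diet effect itself differed between genotypes for none of the 15 in limma's interaction term, where 1 had an unadjusted p under 0.05, as did 3518 of all 12078 genes.

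The promoters of several of these genes carry the ER stress response element (ERSE), which is bound by NF-Y at its CCAAT end and by ATF6 or XBP1 at its CCACG end. RefSeq windows from 250 bases before to 50 after the transcription start (GRCm38.p6) were at hand for 29 of the 33 genes; Atf6, Derl1, Hyou1 and Manf had none. The full element, CCAAT and CCACG with 9 bases between them on either strand, was found in 9 of the 29 windows (31.0%) and in 39 of all 32851 windows (0.119%). It lay in 7 of 13 chaperone windows, 2 of 6 degradation windows, 0 of 3 sensor windows and 0 of 7 ATF4-arm windows. The element was defined in part on genes of this very list, so its presence is a description of known promoters. The chaperone stretches are shown because they are the sequence feature these genes share, with the element in capitals, 5′ to 3′ on the gene's strand. They lie at chr2:34772009-34772059 (plus strand) for Hspa5, chr10:86705517-86705672 (minus) for Hsp90b1 with its 2 copies, chr8:84847059-84847109 (minus) for Calr, chr11:50325784-50325834 (minus) for Canx, chr15:88819504-88819554 (plus) for Creld2, chr14:118937811-118937861 (plus) for Dnajc3 and chr12:17266475-17266525 (plus) for Pdia6.
Hspa5: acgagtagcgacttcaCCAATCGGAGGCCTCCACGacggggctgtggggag
Hsp90b1: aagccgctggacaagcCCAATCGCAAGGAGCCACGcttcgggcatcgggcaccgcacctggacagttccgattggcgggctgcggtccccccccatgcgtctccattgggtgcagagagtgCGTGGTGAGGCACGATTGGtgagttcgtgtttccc
Calr: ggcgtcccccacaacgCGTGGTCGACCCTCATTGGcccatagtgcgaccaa
Canx: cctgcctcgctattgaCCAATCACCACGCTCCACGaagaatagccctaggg
Creld2: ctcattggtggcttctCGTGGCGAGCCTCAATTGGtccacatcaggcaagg
Dnajc3: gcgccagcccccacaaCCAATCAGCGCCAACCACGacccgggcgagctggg
Pdia6: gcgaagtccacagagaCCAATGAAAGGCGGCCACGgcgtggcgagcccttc
Capitals that begin CGTGG are the same element read on the other strand, as in Calr and Creld2. The 7 genes with the element did not move alike: after the diet, Calr rose in wild-type fat, Creld2, Hspa5 and Pdia6 rose in knockout fat, and Canx, Dnajc3 and Hsp90b1 passed the test in neither genotype. A match does not show that a factor bound there.

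**Figure D2:**
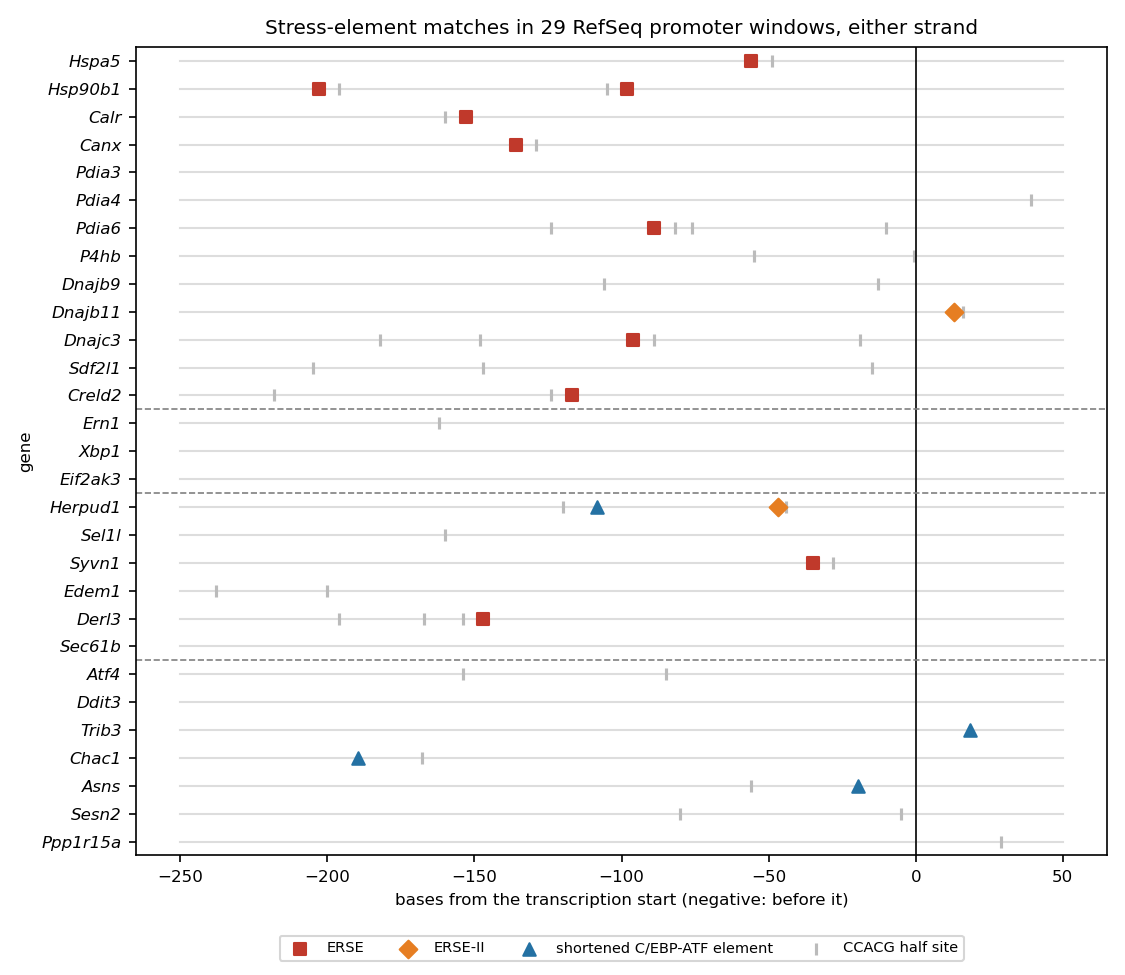
Positions of the motifs (horizontal axis, bases from the transcription start, upstream negative) in the 29 promoter windows (rows, by role). Full ERSE matches are in 9 windows, all of them chaperone or degradation genes, and the shortened C/EBP-ATF element is in 4 windows, 3 of them ATF4-arm genes.

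Sdf2l1, an ER-resident partner of DnaJ co-chaperones, had the largest difference of the listed genes that passed the test. It read 3.59, 4.14, 4.02 and 4.95 in the wild-type low fat arrays and 5.09, 5.20, 5.19 and 5.14 in the knockout low fat arrays. After the high fat diet it read 5.00, 6.79, 5.79 and 6.40 in wild-type fat and 6.46, 6.74, 6.83 and 7.12 in knockout fat. Within each genotype the diet groups did not overlap, although wild-type high fat replicate 1 was close to wild-type low fat replicate 4. The diet difference was 1.82 ± 0.32 in wild-type fat (adjusted p = 4.19e-04) and 1.63 ± 0.32 in knockout fat (adjusted p = 0.00120). Its wild-type low fat mean of 4.18 lay close to the filter at 4; with values floored at 4 the wild-type difference was 1.72.

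Manf, a secreted ER stress protein that binds BiP, was at 9.46, 8.97, 9.09 and 9.28 in wild-type low fat and 8.77, 9.29, 8.51 and 8.53 in knockout low fat arrays. After the high fat diet it was at 9.58, 10.18, 9.85 and 9.77 in wild-type fat and 9.95, 9.80, 9.84 and 10.03 in knockout fat. No high fat array was as low as any low fat array of either genotype. It rose by 0.65 ± 0.17 in wild-type fat (adjusted p = 0.00832) and by 1.13 ± 0.17 in knockout fat (adjusted p = 1.50e-04), and the interaction of 0.48 ± 0.24 did not pass the test (adjusted p = 0.199). Without the 5 arrays with high Tnnt3, the wild-type difference was 0.63 and no longer passed (adjusted p = 0.0533).

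Dnajb11 encodes ERdj3, a BiP co-chaperone. Its levels were 8.94, 8.77, 9.27 and 9.22 in wild-type low fat and 8.68, 8.92, 8.95 and 9.10 in knockout low fat, against 9.17, 9.51, 9.26 and 9.52 in wild-type fat and 9.60, 9.62, 9.50 and 9.77 in knockout fat after high-fat feeding. Knockout diet groups were fully apart, whereas wild-type groups overlapped. It rose by 0.71 ± 0.14 in knockout fat (adjusted p = 9.80e-04), while the wild-type difference of 0.32 ± 0.14 did not pass (adjusted p = 0.0801). The wild-type difference did pass with replicate 3 of wild-type low fat left out (0.39, adjusted p = 0.0462) and without the 5 high-Tnnt3 arrays (0.55, adjusted p = 0.0480), and the interaction of 0.39 ± 0.19 did not (adjusted p = 0.184).

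Creld2, an ER protein induced by stress, read 8.18, 7.95, 8.25 and 8.40 in wild-type low fat and 7.73, 8.19, 8.01 and 7.64 in knockout low fat. With high-fat feeding it read 7.73, 8.56, 7.78 and 8.45 in wild-type fat, spread over both low fat groups, and 8.57, 8.50, 8.46 and 8.52 in knockout fat, above every knockout low fat array. The diet difference was 0.62 ± 0.18 in knockout fat (adjusted p = 0.0174) and -0.06 ± 0.18 in wild-type fat (adjusted p = 0.811), and the interaction did not pass (adjusted p = 0.0895). The knockout call was lost without knockout low fat replicates 1 or 4 (adjusted p 0.05004 and 0.05005).

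Hspa5 itself, the BiP chaperone that also holds the sensors inactive, read 11.87, 12.17, 12.10 and 12.03 in wild-type low fat and 12.22, 12.24, 12.05 and 11.79 in knockout low fat. In the high fat groups it read 12.36, 12.33, 12.19 and 12.14 in wild-type fat and 12.49, 12.32, 12.51 and 12.63 in knockout fat, with the knockout groups apart and the wild-type groups overlapping only at their edge. Hspa5 rose by 0.41 ± 0.12 in knockout fat (adjusted p = 0.0159), a 1.33-fold difference, and its wild-type difference of 0.21 ± 0.12 did not pass (adjusted p = 0.179). The knockout call was lost without knockout high fat replicate 4 (adjusted p = 0.0534) and without the 5 high-Tnnt3 arrays, where the difference was 0.42 (adjusted p = 0.0894).

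**Figure D3:**
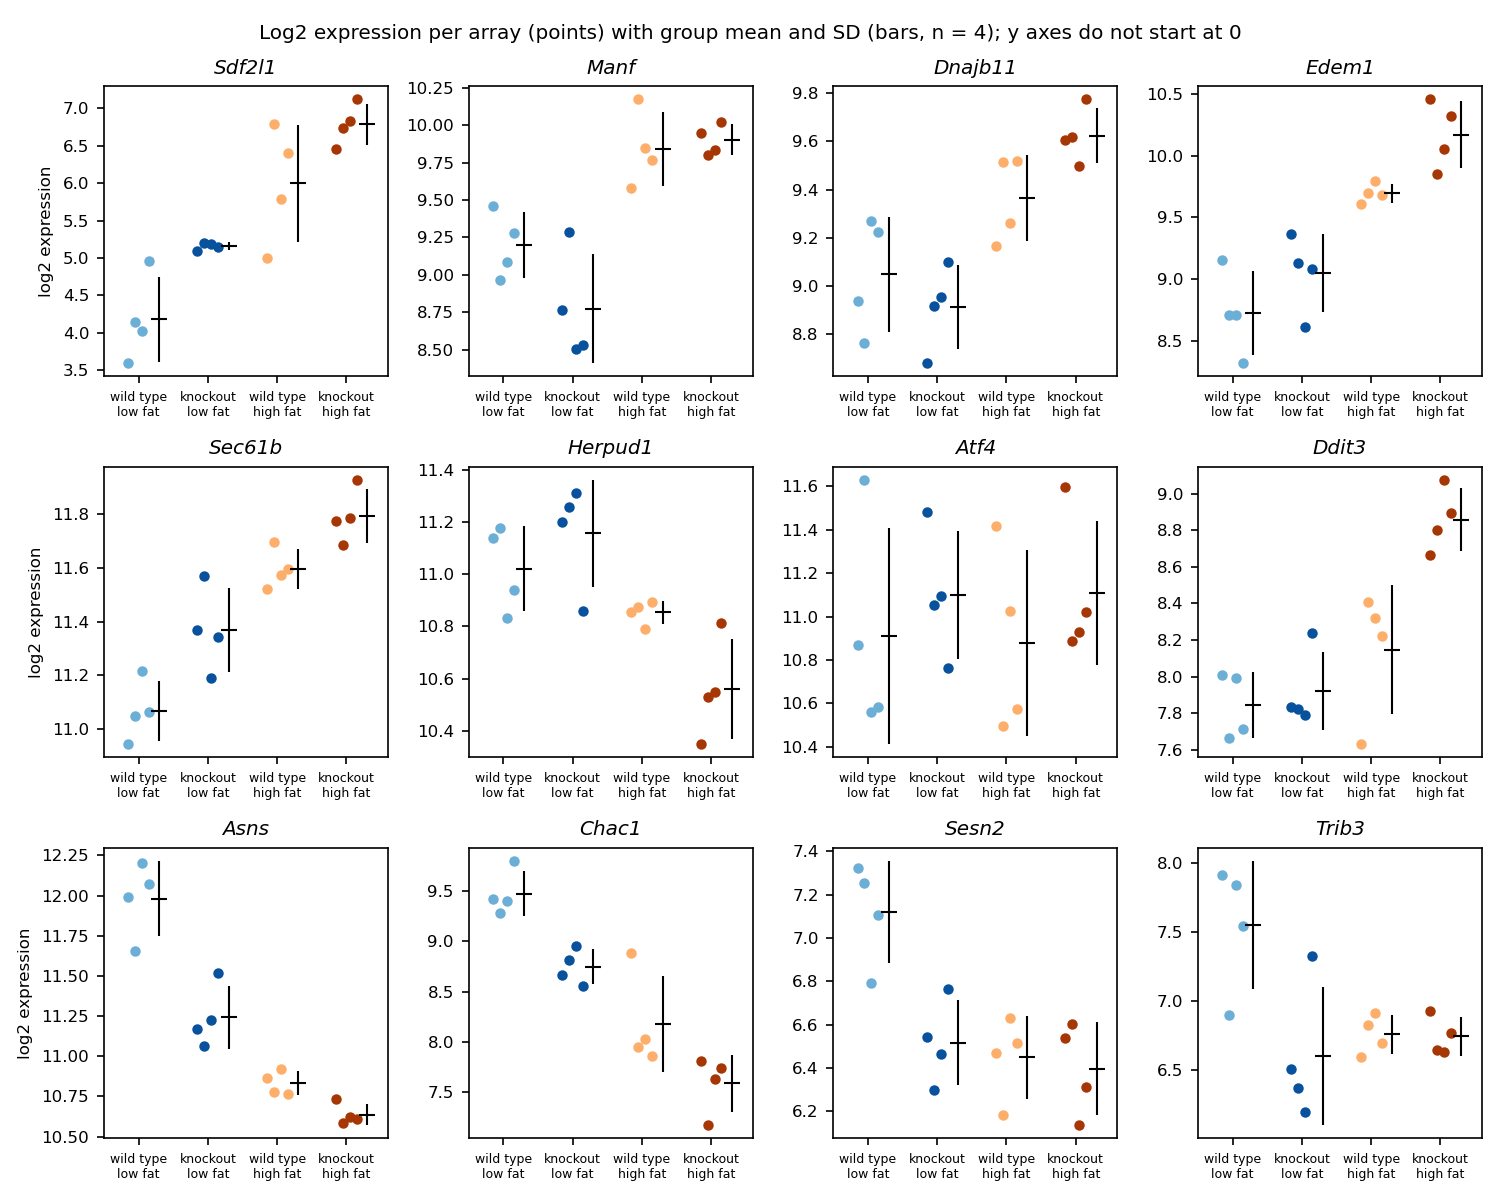
Log2 values (vertical axes) of 12 listed genes in each of the 16 arrays, by group (horizontal axes); points are arrays, and the line and bar are the mean and SD of 4 arrays. Manf and Edem1 are higher in both high fat groups than in either low fat group, and Asns and Chac1 are highest in wild-type low fat.

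The remaining chaperone calls were small. Calr, the lectin chaperone calreticulin, rose by 0.29 ± 0.11 in wild-type fat (adjusted p = 0.0453), and P4hb, a disulphide isomerase, by 0.34 ± 0.10 (adjusted p = 0.0161). The Calr call was lost when any 1 of 10 arrays was left out, namely wild-type low fat replicates 1, 3 or 4, knockout low fat replicates 2 or 3, wild-type high fat replicates 2, 3 or 4 or knockout high fat replicates 2 or 3 (adjusted p 0.0514 to 0.105). The P4hb call was lost without wild-type high fat replicate 2 (adjusted p = 0.0581), and with array medians centred both were lost (adjusted p 0.169 and 0.0626). Both were also lost with only the 2 groups compared (adjusted p 0.0951 and 0.0662). Calr and P4hb differed by 0.22 and 0.16 in knockout fat without passing. With array weights both passed there as higher (0.30 and 0.23, adjusted p 0.00750 and 0.0225). In knockout fat the isomerases Pdia3 and Pdia6 rose by 0.39 ± 0.14 (adjusted p = 0.0412) and 0.54 ± 0.18 (adjusted p = 0.0359), and Hyou1, an ER nucleotide exchange factor, by 0.53 ± 0.16 (adjusted p = 0.0177). Pdia3 was lost without knockout low fat replicates 1, 3 or 4, wild-type high fat replicate 3 or knockout high fat replicates 2, 3 or 4 (adjusted p 0.0521 to 0.120), Pdia6 without knockout low fat replicates 1 or 3 or knockout high fat replicates 2, 3 or 4 (adjusted p 0.0592 to 0.112) and Hyou1 without knockout low fat replicate 1 (adjusted p = 0.0620). Without the 5 high-Tnnt3 arrays none of these 5 calls held: the differences were 0.25 for Calr, 0.40 for P4hb, 0.37 for Pdia3, 0.54 for Pdia6 and 0.54 for Hyou1 (adjusted p 0.0617 to 0.299).

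For 3 of these genes the genotype in which the call fell depended on the probe set. A second, dim Pdia3 probe set differed by 0.63 in wild-type and 0.04 in knockout fat. With the mean of both, Pdia3 passed in wild-type fat (0.45, adjusted p = 0.00802) and not in knockout fat (0.22, adjusted p = 0.184). Hyou1 had a second probe set that differed by 1.14 in wild-type and 0.67 in knockout fat; with this one alone the wild-type difference passed (adjusted p = 0.00647) and the knockout difference did not (adjusted p = 0.101). With the mean of its probe sets Pdia6 rose in wild-type fat too (0.40, adjusted p = 0.0198). That mean includes a second Pdia6 probe set that failed the filter (group means 2.58 to 3.34).

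For Hsp90b1, the ER form of HSP90, the diet differences were 0.38 in wild-type and 0.32 in knockout fat (adjusted p 0.0701 and 0.142). Its second probe set, nearly as bright, gave -0.26 and 0.31, so the wild-type sign is uncertain. The wild-type difference passed in 4 of the other settings (a trended prior, array weights, without wild-type low fat replicate 2 or knockout low fat replicate 4; adjusted p 0.0210 to 0.0489), and the knockout one with the mean of probe sets (0.31, adjusted p = 0.0221). For the lectin chaperone Canx they were 0.12 and 0.10, for the co-chaperone Dnajb9 -0.22 and 0.13, and for Dnajc3, an inhibitor of eIF2 kinases, 0.10 and -0.10; none of these 3 passed. The 5 probe sets of Dnajc3 disagreed in sign, so its difference is uncertain. The disulphide isomerase Pdia4 had a large nominal difference, 1.46 ± 1.05 in wild-type and 1.61 ± 1.05 in knockout fat, with adjusted p of 0.299 and 0.272. Its values ran from 4.40 to 9.96 over the arrays and from 5.44 to 9.79 within the knockout high fat group alone. Its second probe set failed the filter, with group means of 1.59 to 1.75. The differences of that probe set, -0.07 and 0.14, are therefore no check on the first. The value of 4.40 was replicate 3 of wild-type low fat; leaving that array out, the wild-type difference was 0.21 (adjusted p = 0.865). The knockout difference was 2.56 without knockout high fat replicate 1 (adjusted p = 0.0735), and it passed with array weights (1.91, adjusted p = 0.0283).

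With the probe sets used here, none of the 4 sensors and factors passed limma's test in any comparison. In the diet comparison 1 of them had an unadjusted p under 0.05 in wild-type fat and 0 in knockout fat, beside 5439 and 4842 of all 12078 genes. Xbp1, whose spliced form is the IRE1 effector, read 11.79, 11.82, 11.31 and 11.43 in wild-type low fat and 11.67, 11.48, 11.43 and 11.14 in knockout low fat. Under high-fat feeding it read 11.66, 11.20, 11.31 and 11.28 in wild-type fat and 11.65, 10.94, 11.24 and 11.44 in knockout fat, and all 4 groups overlapped. The diet differences were -0.23 ± 0.17 in wild-type fat (adjusted p = 0.325) and -0.12 ± 0.17 in knockout fat (adjusted p = 0.649).

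This absence of a call for Xbp1 rests on the probe set chosen. Its other 3 probe sets differed by -0.51, -0.27 and -0.72 between the wild-type diet groups, and the mean of all 4 fell by 0.43 (adjusted p = 0.01004). The arrays measure total Xbp1 messenger RNA and do not separate spliced from unspliced forms. Of the sensors proper, Ern1 differed by 0.19 and 0.12 with the diet in wild-type and knockout fat, Atf6 by 0.01 and 0.16, and Eif2ak3 by 0.51 and -0.15. The smallest adjusted p among them was 0.0701, for Eif2ak3 in wild-type fat. That Eif2ak3 difference passed without wild-type low fat replicate 4 or wild-type high fat replicate 1 (0.64 in both cases, adjusted p 0.0347 and 0.0332). Leaving out knockout high fat replicate 1 also made it pass (0.51, adjusted p = 0.0450). Atf6 was higher in all 4 knockout high fat arrays than in any wild-type high fat array, by 0.35 ± 0.12, without passing the test (adjusted p = 0.0700). That missing call rests on choices too: it passed with array weights, with the replicate block, with the mean of its 3 probe sets (0.39, adjusted p = 0.0221) and with the most variable one (0.66, adjusted p = 0.0157). With the last pair of settings Atf6 also rose with the diet in knockout fat (0.32 and 0.70, adjusted p 0.0342 and 0.00578).

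Translocation and degradation genes split by member. In both genotypes Edem1 and Sec61b rose with the high fat diet, Syvn1 fell in wild-type fat and Herpud1 fell in knockout fat, so 3 of 6 tested passed in each, beside 35.6% and 29.2% of all genes. The promoters of Syvn1 and Derl3 hold the full ERSE, and that of Herpud1 holds the variant ERSE-II, ATTGG and CCACG with 1 base between them, which was present in 2 of the 29 windows (Herpud1 and Dnajb11) and in 12 of all windows (0.0365%). They are shown to set these genes, which fell or lay near the filter, beside the chaperones that carry the element. The stretches lie at chr19:6046516-6046566 for Syvn1, chr10:75893226-75893276 for Derl3 and chr8:94386361-94386403 for Herpud1, all on the plus strand, with the element in capitals.
Syvn1: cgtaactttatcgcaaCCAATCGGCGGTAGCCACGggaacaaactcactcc
Derl3: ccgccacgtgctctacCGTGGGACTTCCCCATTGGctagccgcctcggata
Herpud1: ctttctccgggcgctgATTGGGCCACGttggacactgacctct
The unfolded protein response element TGACGTGG was in 0 of the 29 windows and 0.676% of all windows, while the CCACG end alone, which lies within ERSE, was in 23 of 29 and 32.8% of all.

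Edem1, a lectin that hands misfolded glycoproteins to degradation, read 9.15, 8.71, 8.71 and 8.32 in wild-type low fat and 9.36, 9.13, 8.61 and 9.08 in knockout low fat. After the high fat diet it read 9.61, 9.70, 9.80 and 9.68 in wild-type fat and 10.46, 9.85, 10.06 and 10.32 in knockout fat, above every low fat array. It rose by 0.97 ± 0.18 in wild-type fat (adjusted p = 7.55e-04) and 1.13 ± 0.18 in knockout fat (adjusted p = 2.79e-04), about 1.96- and 2.18-fold. Its second probe set gave 1.07 in wild-type fat and 0.17 in knockout fat, so the knockout size depends on the probe set. Without the 5 high-Tnnt3 arrays the wild-type difference was 0.73 and no longer passed (adjusted p = 0.0554).

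Sec61b is the beta subunit of the SEC61 translocation channel. It read 10.95, 11.05, 11.22 and 11.06 in wild-type low fat and 11.37, 11.57, 11.19 and 11.34 in knockout low fat, and 11.52, 11.70, 11.57 and 11.59 in wild-type fat and 11.77, 11.69, 11.78 and 11.93 in knockout fat after high-fat feeding. Both diet pairs were apart, and the differences of 0.53 ± 0.10 (adjusted p = 9.88e-04) and 0.42 ± 0.10 (adjusted p = 0.00571) passed the test.

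Herpud1, an ER membrane protein that organises the degradation complex, moved the other way. Its levels were 11.14, 11.18, 10.83 and 10.94 in wild-type low fat, 11.20, 11.26, 11.31 and 10.86 in knockout low fat, 10.86, 10.88, 10.79 and 10.89 in wild-type high fat and 10.35, 10.53, 10.55 and 10.81 in knockout high fat. The knockout diet groups did not overlap, and Herpud1 fell there by 0.60 ± 0.13 (adjusted p = 0.00210). Its wild-type difference of -0.17 ± 0.13 did not pass (adjusted p = 0.320).

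Syvn1 encodes HRD1, the ubiquitin ligase of the same complex. It read 8.90, 8.59, 8.38 and 8.60 in wild-type low fat and 8.31, 8.23, 8.30 and 8.12 in wild-type high fat, then 8.55, 8.52, 8.37 and 8.68 in knockout low fat and 8.40, 8.42, 8.00 and 8.28 in knockout high fat. The wild-type groups were apart by a narrow gap and Syvn1 fell by 0.38 ± 0.13 (adjusted p = 0.0280), whereas the knockout groups overlapped (-0.25 ± 0.13, adjusted p = 0.154). The call was lost without wild-type low fat replicate 1 or wild-type high fat replicates 2 or 4 (adjusted p 0.0587 to 0.0937) and without the 5 high-Tnnt3 arrays (-0.52, adjusted p = 0.0646). A second Syvn1 probe set differed by -0.16 in wild-type and -0.39 in knockout fat. With that one alone the wild-type call was lost (adjusted p = 0.454), and with the mean of both it was lost too (-0.27, adjusted p = 0.0777) while the knockout difference passed (-0.32, adjusted p = 0.0482). Sel1l, the partner of HRD1, differed by -0.06 and -0.03 with the diet, and Derl1, a retrotranslocation factor, by -0.10 and -0.28, neither passing. The other 3 Derl1 probe sets differed by -0.29, -0.30 and -0.50 in wild-type fat and by -0.26, -0.21 and -0.57 in knockout fat. With the mean of all 4, Derl1 was called lower in both genotypes (-0.30, adjusted p = 0.0225 in wild-type and -0.33, adjusted p = 0.0163 in knockout fat).

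The called genes of the ATF4 arm went down in wild-type fat, where those of the chaperones went up. There 4 of its 7 genes fell with the high fat diet (57.1%, beside 15.2% of all genes) and none rose, with a median difference of -0.67. In knockout fat 2 fell and 1 rose (beside 13.5% and 15.6% of all genes), with a median of 0.01. No listed gene's diet effect differed between genotypes after limma's adjustment, where 13% of all genes did (5.12% higher and 7.87% lower in knockout fat). Before adjustment, 8 of 32 had a p under 0.05 in that test, as did 3518 of all 12078 genes. All 7 ATF4-arm genes had a diet effect that was higher in knockout than in wild-type fat, as did 5894 of all 12078 genes. For 5 of the 7 the unadjusted p was under 0.05: Asns, Trib3, Ppp1r15a, Ddit3 and Sesn2, with adjusted p of 0.0535, 0.0709, 0.0800, 0.0841 and 0.0958. The interaction uses the same wild-type arrays as the wild-type diet comparison, so it is not separate support. With array medians centred, floored values or a trended prior, the interaction of Asns passed (adjusted p 0.0381, 0.0492 and 0.0375). With array weights those of Asns, Trib3 and Ddit3 passed as higher (adjusted p 0.00628, 0.00879 and 0.0291). That of Sesn2 passed with the mean of its probe sets and with the most variable one (adjusted p 0.0267 and 0.0245). Herpud1 passed as lower with array weights and with the mean of its probe sets (adjusted p 0.0366 and 0.0413). Without knockout low fat replicate 4, 3 listed genes were called higher and 1 lower in the interaction; 2 were called higher without wild-type low fat replicate 2, and 1 without replicate 3 of that group, wild-type high fat replicate 2 or knockout high fat replicate 2.

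Asns, asparagine synthetase, is a known target of ATF4, which binds C/EBP-ATF elements. A common form of that element, TGATGNAAT, was found in 0 of the 29 windows and 0.965% of all, and the shorter TGATGNAA, searched after that, in 4 (Asns, Chac1, Trib3 and Herpud1; 13.8%) and in 3.97% of all. The stretches of Asns (chr6:7693210-7693248, minus strand) and Chac1 (chr2:119351033-119351072, plus strand) are shown because these genes fell furthest, with the match in capitals.
Asns: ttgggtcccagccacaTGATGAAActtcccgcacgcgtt
Chac1: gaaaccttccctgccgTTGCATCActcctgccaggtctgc
In Chac1 the match is on the opposite strand.

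The Asns level was 11.99, 11.66, 12.21 and 12.07 in the wild-type low fat arrays and 11.17, 11.06, 11.22 and 11.52 in the knockout low fat arrays. With high-fat feeding it was 10.86, 10.78, 10.92 and 10.77 in wild-type fat and 10.73, 10.58, 10.62 and 10.61 in knockout fat. The groups lined up without overlap, wild-type low fat highest, then knockout low fat, then wild-type high fat, then knockout high fat, although the difference of the last pair did not pass the test (-0.19 ± 0.12, adjusted p = 0.320). Asns fell with the diet by 1.15 ± 0.12 in wild-type fat (adjusted p = 7.36e-06) and by 0.61 ± 0.12 in knockout fat (adjusted p = 0.00170).

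Chac1 encodes an enzyme that degrades glutathione. It read 9.42, 9.28, 9.40 and 9.79 in wild-type low fat and 8.66, 8.82, 8.95 and 8.55 in knockout low fat, then 8.88, 7.95, 8.02 and 7.86 in wild-type fat and 7.81, 7.17, 7.63 and 7.74 in knockout fat after high-fat feeding. The diet groups were apart in both genotypes, with wild-type high fat replicate 1 above the other 3 arrays of its group. Chac1 fell by 1.29 ± 0.21 in wild-type fat (adjusted p = 1.91e-04) and by 1.16 ± 0.21 in knockout fat (adjusted p = 5.66e-04).

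Trib3, a pseudokinase that inhibits AKT, read 7.91, 6.90, 7.84 and 7.54 in wild-type low fat and 6.60, 6.83, 6.92 and 6.70 in wild-type high fat. In knockout fat it read 6.51, 6.37, 6.20 and 7.33 on the low and 6.93, 6.65, 6.63 and 6.77 on the high fat diet. It was high in 3 wild-type low fat arrays and in knockout low fat replicate 4, and it fell with the diet in wild-type fat by 0.79 ± 0.23 (adjusted p = 0.0142). The knockout difference was 0.14 ± 0.23 (adjusted p = 0.684). Leaving out wild-type low fat replicate 1 ended the wild-type call (adjusted p = 0.0504), as did leaving out the 5 high-Tnnt3 arrays (-0.70, adjusted p = 0.160). Sesn2, a stress sestrin that restrains mTORC1, fell by 0.67 ± 0.15 in wild-type fat (adjusted p = 0.00260), and its knockout difference was -0.12 ± 0.15 (adjusted p = 0.588).

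Ddit3, which encodes the stress factor CHOP, went up rather than down. It read 8.01, 7.66, 7.99 and 7.71 in wild-type low fat and 7.83, 7.82, 7.79 and 8.24 in knockout low fat, 7.63, 8.41, 8.32 and 8.22 in wild-type high fat and 8.66, 8.80, 9.07 and 8.89 in knockout high fat. Every knockout high fat array was above all the other 12. Ddit3 rose with the diet in knockout fat by 0.94 ± 0.17 (adjusted p = 5.56e-04, 1.92-fold), and the wild-type difference was 0.30 ± 0.17 (adjusted p = 0.172). The wild-type difference passed without wild-type high fat replicate 1 (0.47, adjusted p = 0.0186) and with array weights (0.44, adjusted p = 0.0396). Its second probe set differed by 0.47 in knockout and 0.00 in wild-type fat.

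Atf4 messenger RNA passed the test in no comparison. It read 10.87, 11.63, 10.56 and 10.59 in wild-type low fat and 11.48, 11.05, 11.09 and 10.76 in knockout low fat, and 11.42, 10.49, 11.02 and 10.57 in wild-type fat and 11.60, 10.89, 10.93 and 11.02 in knockout fat after high-fat feeding, with all groups overlapping. The diet differences were -0.03 ± 0.26 in wild-type fat (adjusted p = 0.933) and 0.01 ± 0.26 in knockout fat (adjusted p = 0.979). The 95% interval of the wild-type difference ran from -0.57 to 0.51, and ATF4 is controlled largely at translation, which arrays do not measure. Ppp1r15a, the GADD34 subunit that reverses eIF2 phosphorylation, differed by -0.25 ± 0.17 and 0.40 ± 0.17 (adjusted p 0.257 and 0.0854).

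**Figure D4:**
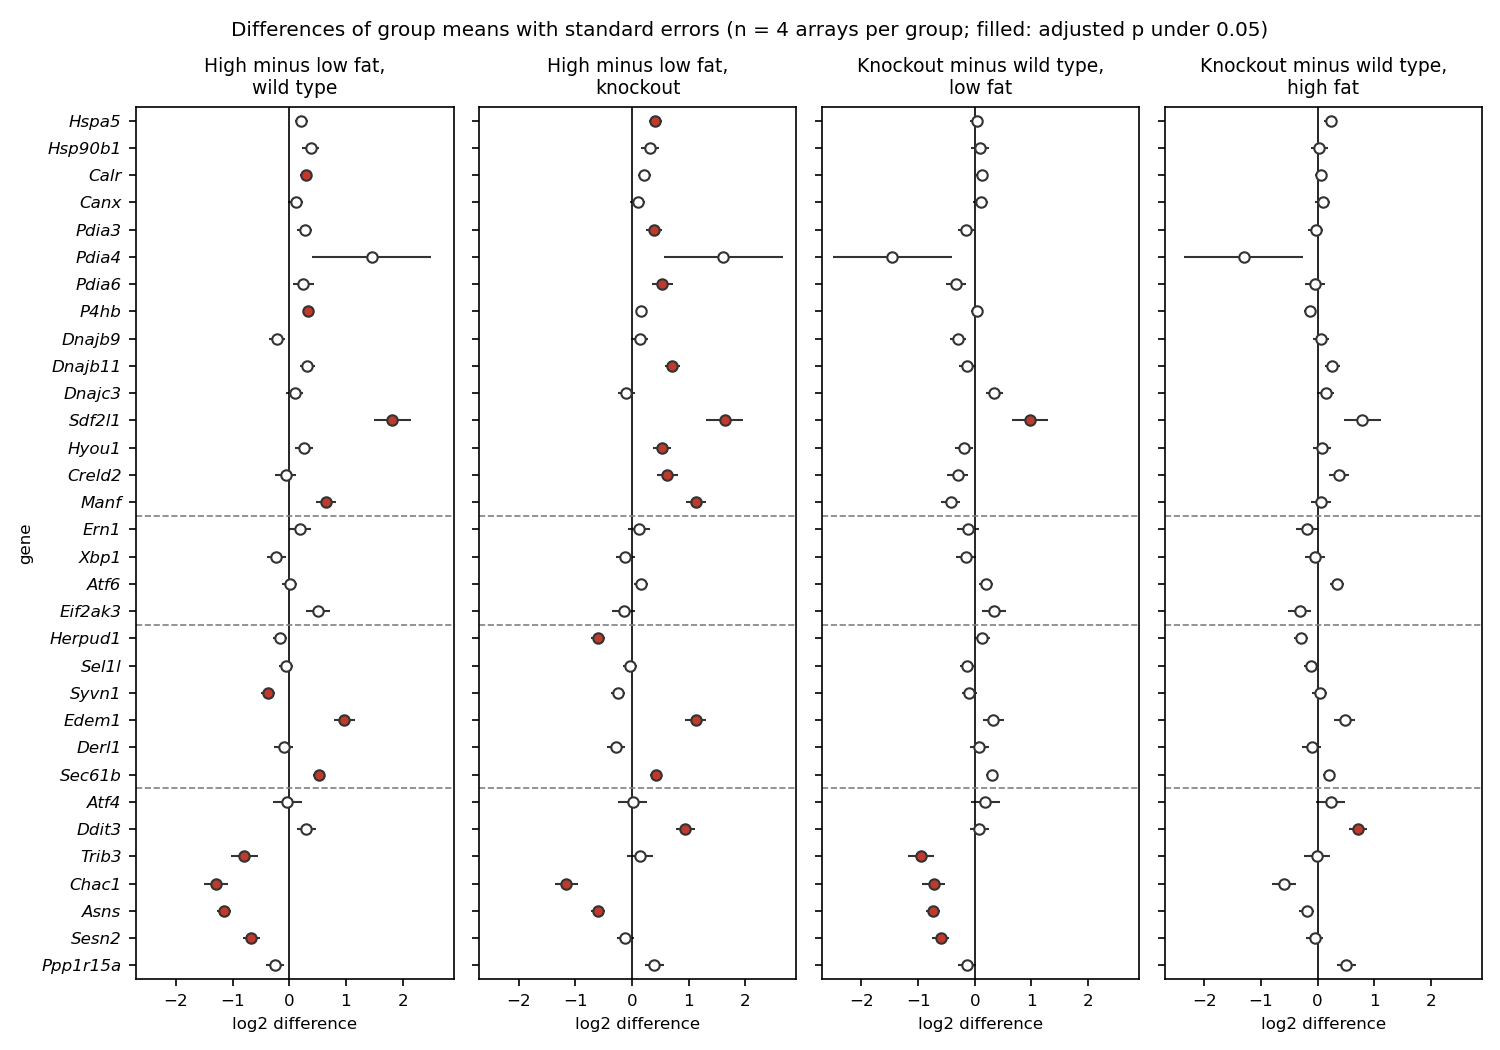
Differences of log2 group means with their standard errors (horizontal axes) for the 32 tested genes (rows, by role) in 4 comparisons (panels); filled points passed the test. In wild-type fat 4 ATF4-arm genes lie left of zero as filled points, and in knockout fat 8 chaperones lie right of it.

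Loss of Sirt1 on the low fat diet was compared next. Of the 32 tested genes, 1 rose (Sdf2l1) and 4 fell (Asns, Chac1, Sesn2 and Trib3), together 15.6% beside 18.9% of all genes, where 11.7% rose and 7.24% fell. All 4 that fell were of the ATF4 arm, 4 of 7, with a median difference of -0.60 for the role. They are the same 4 that fell with the diet in wild-type fat, and both comparisons use the wild-type low fat arrays, so their values are given side by side and not as separate support. Asns differed by -0.74 ± 0.12 (adjusted p = 8.54e-04) here and by -1.15 with the diet. Trib3 differed by -0.95 ± 0.23 (adjusted p = 0.00973) and -0.79, Chac1 by -0.73 ± 0.21 (adjusted p = 0.0218) and -1.29, and Sesn2 by -0.60 ± 0.15 (adjusted p = 0.0110) and -0.67. For Asns, Chac1 and Sesn2 no knockout low fat array reached a wild-type low fat array, as for 6.02% of all genes, and for Sdf2l1 all knockout arrays were above (11.8%).

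Several of these calls depended on single arrays. Chac1 was lost without wild-type low fat replicate 4 or knockout low fat replicate 1 (adjusted p = 0.0616 in both cases), and without the 5 high-Tnnt3 arrays, which leaves 2 wild-type low fat arrays, 4 calls were lost. The differences were then -0.52 for Asns, -0.63 for Chac1, -0.73 for Trib3 and 1.27 for Sdf2l1 (adjusted p 0.0865, 0.234, 0.221 and 0.0861). Sdf2l1 was higher by 0.98 ± 0.32 (adjusted p = 0.0424), and this call was lost when any 1 of 10 arrays was left out, namely wild-type low fat replicates 1, 2 or 3, knockout low fat replicates 1, 2, 3 or 4, wild-type high fat replicate 3 or knockout high fat replicates 2 or 3 (adjusted p 0.0518 to 0.139). With values floored at 4 its difference was 0.88 (adjusted p = 0.0543). Among the other chaperones none passed, and 8 of the 15 were lower, with a median of -0.14; Manf differed by -0.43 ± 0.17 (adjusted p = 0.0963) and Pdia6 by -0.34 ± 0.18 (adjusted p = 0.213). Single arrays decided some of these: without wild-type low fat replicate 2, Pdia6 passed as lower (-0.52, adjusted p = 0.0235) and Dnajc3 as higher (0.50, adjusted p = 0.0129). Pdia4 passed as lower with replicate 3 of that group left out (-2.71, adjusted p = 0.0315) and Manf without knockout low fat replicate 2 (-0.60, adjusted p = 0.0186). With array medians centred Manf passed as lower (adjusted p = 0.0460), and all-gene calls split into 1151 higher and 1274 lower instead of 1410 and 874. No sensor and no degradation gene passed, Sec61b being nearest at 0.30 ± 0.10 (adjusted p = 0.0525). These missing calls rest on choices too. Sec61b passed with a stricter filter, the floor, a trended prior or the mean of probe sets (adjusted p 0.0310 to 0.0498). It also passed without replicate 3 of either low fat group (adjusted p 0.0378 to 0.0400). Edem1 passed as higher with the mean of its probe sets (0.54, adjusted p = 0.00297). With the most variable probe set Xbp1 and Derl1 passed as lower (-0.56 and -0.52, adjusted p 0.0192 and 0.0499).

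On the high fat diet, 1 of the 32 genes differed between genotypes, Ddit3, which was higher in knockout fat by 0.71 ± 0.17 (adjusted p = 0.00898). That is 3.12% of the tested members, where 15.1% of all genes passed (8.58% higher and 6.47% lower). In limma's test 7 members had an unadjusted p under 0.05, as did 3579 of all 12078 genes. All 4 knockout high fat arrays were above all 4 wild-type high fat arrays, as for 14.6% of all genes. The Ddit3 call was lost without the 5 high-Tnnt3 arrays, at a difference of 0.76 (adjusted p = 0.0638). Ppp1r15a differed by 0.51 ± 0.17 (adjusted p = 0.0503), Chac1 by -0.59 ± 0.21 (adjusted p = 0.0642), Sdf2l1 by 0.79 ± 0.32 (adjusted p = 0.108) and Edem1 by 0.48 ± 0.18 (adjusted p = 0.0941). Ppp1r15a passed with a filter at log2 6, the floor, quantile normalization, array weights or the mean of probe sets (adjusted p 0.0297 to 0.0493). Edem1 passed with only the 2 groups compared (adjusted p = 0.0392). The second Edem1 probe set differed by -0.14, so the sign depends on the probe set. Of the 15 chaperones, 0 passed, and with array weights Hspa5 and Sdf2l1 were called higher (adjusted p 0.0298 and 0.0272). Leaving out replicate 2 of wild-type low fat, wild-type high fat or knockout high fat gave 2 higher calls in place of 1, and leaving out wild-type high fat replicate 4 gave 1 lower call.

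Further genes of the same pathways, from lists outside the 33, were read from the same fit. Of 20 tested folding and disulphide genes, 7 rose and 0 fell with the diet in wild-type fat, 10 rose and 1 fell in knockout fat, 5 were higher in knockout fat under low-fat feeding (beside 11.7% of all genes), and 2 were higher and 1 lower on the high fat diet (beside 8.58% and 6.47%). Pdia5, a disulphide isomerase, rose by 1.58 ± 0.17 in wild-type (adjusted p = 5.49e-06) and 0.84 ± 0.17 in knockout fat (adjusted p = 0.00126). Erp29, an ER folding factor, rose by 0.73 ± 0.10 (adjusted p = 8.16e-05) and 0.81 ± 0.10 (adjusted p = 3.48e-05). Nucb2, a calcium-binding protein, rose by 0.80 and 0.71 (adjusted p 3.09e-04 and 9.98e-04). Fkbp2, an ER prolyl isomerase, was higher in knockout than in wild-type fat under high-fat feeding by 0.51 ± 0.13 (adjusted p = 0.0175). Shares of this list called higher (35% and 50% with the diet) stood beside 20.5% and 15.6% of all genes.

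In the translocation and degradation list, 5 of 25 (20%) rose and 0 fell with the diet in each genotype, where 20.5% of all genes rose in wild-type and 15.6% in knockout fat; the wild-type share was at the background. Sec11c, a signal peptidase subunit, rose by 0.55 ± 0.12 (adjusted p = 0.00278) in wild-type and 0.82 ± 0.12 (adjusted p = 1.55e-04) in knockout fat, and Os9, a lectin of the degradation complex, by 0.48 ± 0.09 in wild-type fat (adjusted p = 9.68e-04). Of 12 further sensors and ER-bound factors, 2 rose in wild-type fat, and 5 rose and 2 fell in knockout fat. Of all genes, 20.5% rose in wild-type fat, and 15.6% rose and 13.5% fell in knockout fat. Among them Wfs1, an ER membrane glycoprotein, rose by 1.23 ± 0.16 in knockout fat (adjusted p = 4.37e-05) and differed by 0.42 ± 0.16 in wild-type fat without passing (adjusted p = 0.0571). Creb3l1 and Creb3l2, ER-bound factors cleaved in the manner of ATF6, rose in wild-type fat by 0.70 and 0.74 (adjusted p 0.00918 and 0.00368).

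Of 31 further ATF4 targets and eIF2 kinases, 8 rose and 4 fell with the diet in wild-type fat, and 7 rose and 0 fell in knockout fat. The wild-type counts were near the background, where 20.5% of all genes rose and 15.2% fell; in knockout fat 15.6% rose and 13.5% fell. Atf3, a stress-induced factor, had the largest difference, 1.85 ± 0.44 in wild-type (adjusted p = 0.00438) and 3.05 ± 0.44 in knockout fat (adjusted p = 1.02e-04), and it was higher in knockout fat under high-fat feeding by 1.88 ± 0.44 (adjusted p = 0.00977). Mthfd2, a mitochondrial folate enzyme, rose by 1.10 ± 0.29 and 1.71 ± 0.29 (adjusted p 0.00827 and 4.20e-04). The amino acid transporters parted: Slc7a5 rose by 0.98 ± 0.24 (adjusted p = 0.00536) and Slc7a3 fell by 0.92 ± 0.23 (adjusted p = 0.00543) in wild-type fat. Under low-fat feeding Stc2, a secreted stanniocalcin, was higher in knockout fat by 1.49 ± 0.28 (adjusted p = 0.00180). Without the 5 high-Tnnt3 arrays the Atf3 calls in wild-type fat (1.76, adjusted p = 0.0539) and between genotypes on the high fat diet (1.77, adjusted p = 0.0680) were lost. Immediate early genes, which respond to tissue handling as well as to stress, summed to 11.57 to 12.78 in wild-type low fat and 13.35 to 13.52 in knockout high fat. Of 9 tested, 4 rose with the diet in each genotype, beside 20.5% of all genes in wild-type and 15.6% in knockout fat.

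Cytosolic heat shock genes gave a comparison outside the ER. Of 11 tested, 1 rose and 0 fell with the diet in wild-type fat, 0 rose and 1 fell in knockout fat, 1 was higher in knockout fat under low-fat feeding, and 0 differed on the high fat diet, where 2 had an unadjusted p under 0.05 in limma's test. Of all genes, 20.5% rose and 15.2% fell with the diet in wild-type fat, and 15.6% and 13.5% in knockout fat. In knockouts 11.7% were higher and 7.24% lower on the low fat diet, and 8.58% and 6.47% on the high fat diet. There 3579 of all 12078 genes had an unadjusted p under 0.05 in the same test.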

How the data were processed

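White adipose tissue of 4 groups of mice (4 arrays each) was measured on Affymetrix arrays. The authors deposited log2 values of each probe set; the submitters' processing notes name GCRMA 2.20.0 and R 2.11.1 as the tools, and no source used here describes batch handling. GCRMA shrinks dim probes towards a floor, so differences of low genes are imprecise. The number of arrays limits the precision. Of 45037 probe sets, 34945 had 1 gene symbol, 932 several and 9160 none, by the platform annotation; 34741 of those with 1 symbol matched the RefSeq gene table, and 0 symbols needed updating. Each gene was taken as its probe set with the highest mean, giving 18193 genes, and 12078 were tested because they reached log2 4 in at least 4 arrays.

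Group means were fitted over all 16 arrays in limma 3.58.1 (R 4.3.3) with 5 contrasts: the diet in each genotype, the genotype on each diet, and the interaction. P-values were two-sided and adjusted by Benjamini-Hochberg over the 12078 genes, with a threshold of 0.05. The fit was tested on simulated data in which 200 of the 12078 genes were changed. Of genes changed 2-fold in the wild-type diet comparison, 74.3% were recovered, and of those changed 1.5-fold, 37.3%. For the interaction the shares were 55.6% and 15.2%. In the real data 4304 and 1569 genes were called, which makes the adjustment less strict. The simulated shares therefore do not give the power of the tests above. Replicate numbers of the titles did not pair the arrays: over 24 same-numbered pairs the deviations from group means correlated at -0.32 to 0.20, with 5 over 0.1.

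The 33 genes, the other pathway lists, the marker lists and the motifs were chosen with earlier results of these data known. Every array's value is given for the 4 genes of each role with the largest difference past the threshold in any comparison and for Hspa5, Xbp1, Atf4 and Ddit3, with no such gene among the sensors; the rest are given by means, differences or ranges. From each of the 4 other pathway lists, the genes named are among the 4 of smallest p in a comparison. Promoter sequences are from RefSeq (GRCm38.p6). Alternatives tried were no filter and a filter at log2 6, a floor at 4, median centring, quantile normalization, only the 2 groups compared, a trended robust prior, array weights, the mean or the most variable probe set, a replicate block, leaving out each array or the 5 arrays with Tnnt3 at 8 or more, and a threshold of 0.01. Of the list entries, 11 had no probe set of their own symbol and were left out.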

Additional observations from a re-analysis of the deposited data

Results flagged for a closer look

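Over 240 group checks of the named genes, 13 arrays stood apart from the other 3 of their group; chance alone gives about 1 in 20 such groups (5%). Among the listed genes, Calr read 12.32 in wild-type high fat replicate 1, where the other 3 arrays read 12.50 to 12.52. Pdia4 read 4.40 in wild-type low fat replicate 3, against 9.04 to 9.96. Hyou1 read 7.15 in knockout high fat replicate 1, against 7.52 to 7.54. Ern1 read 8.99 in wild-type high fat replicate 1, against 8.76 to 8.80, and Chac1 read 8.88 in the same array, against 7.86 to 8.02. Atf6 read 9.50 in knockout high fat replicate 3, against 9.28 to 9.31. Derl1 read 12.02 in wild-type low fat replicate 2, against 11.47 to 11.56. Ddit3 read 8.24 in knockout low fat replicate 4, against 7.79 to 7.83.

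Outside the 33, Nucb2 read 8.38 in knockout low fat replicate 3 (others 8.61 to 8.63), Os9 read 9.92 in wild-type low fat replicate 2 (others 10.12 to 10.13) and Sec24d, a COPII coat subunit, 8.50 in knockout high fat replicate 1 (others 9.62 to 9.85). Creb3l1 read 6.51 in knockout high fat replicate 2 (others 7.11 to 7.15), and Slc7a3 read 5.13 in wild-type low fat replicate 1 (others 4.37 to 4.45).

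The diet effect differed between genotypes for 4 named genes outside the 33, by the interaction in limma. It was lower in knockout than in wild-type fat by -0.74 for Pdia5 (SE 0.234, adjusted p = 0.0482), by -0.85 for Creb3l2 (SE 0.246, adjusted p = 0.0329) and by -1.57 for Stc2 (SE 0.393, adjusted p = 0.0165). It was higher in knockout fat by 0.82 for Wfs1 (SE 0.231, adjusted p = 0.0302).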

How the results depend on the processing

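Of 31 calls on listed genes, 14 held in every setting tried and 17 were lost in at least 1. With the diet 6 listed genes rose and 5 fell in wild-type fat, and 11 rose and 3 fell in knockout fat; between genotypes 1 was higher and 4 lower on the low fat diet, and 1 higher and 0 lower on the high fat diet; in the interaction 0 and 0. Leaving out 1 array gave 4 to 9 and 3 to 5, 7 to 11 and 3 in each case, 0 to 1 and 3 to 5, 1 to 2 and 0 to 1, and 0 to 3 and 0 to 1, in that order. Without the arrays with Tnnt3 at 8 or more, 3 rose and 3 fell in wild-type fat, 7 rose in knockout fat, 0 were higher and 1 lower in the genotype comparison on the low fat diet, and 0 higher on the high fat diet. That setting also leaves fewer arrays. At an adjusted p of 0.01, 3 fell in wild-type fat, 6 rose in knockout fat, and 0 were higher and 2 lower on the low fat diet. The genotype difference on the low fat diet counted 0 higher without a filter, 2 with the stricter filter, 2 with a trended robust prior, 3 with the mean of probe sets and 2 with the most variable one. On the high fat diet it counted 2 higher with the stricter filter, with the floor, with quantile normalization or with only the 2 groups compared, 5 higher and 1 lower with array weights, 3 and 1 with the mean of probe sets, and 2 and 1 with the most variable. The interaction counted 1 higher with the floor, centring, the trended prior or the most variable probe set, 3 higher and 1 lower with array weights, and 1 and 1 with the mean of probe sets. In knockout fat 5 fell with array weights and 5 with the mean of probe sets. With the replicate block, 3 were higher in high-fat-fed knockout fat and 10 rose with the diet in knockout fat, and the other counts were as before. The causes were not tested.

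Directions that turned, each with another probe set of the gene: with the most variable one, Pdia3 knockout on low fat diet was 0.56, Derl1 knockout on low fat diet -0.52, Sec63 diet in wild type -0.32, Sec63 knockout on low fat diet -0.72, Sec63 interaction 0.89 and Erlec1 diet in knockout -0.017; with the mean, Sec63 diet in wild type was -0.10. For Pdia3, Derl1, Sec63 and Erlec1 the sign thus depends on the probe set.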
